A study of Mus musculus with 12 samples.

Results

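The genes described here encode insulin-like growth factor 1 (Igf1), its receptor (Igf1r), the insulin receptor (Insr), the adapters that both receptors phosphorylate (Irs1 and Irs2) and 5 IGF-binding proteins (Igfbp2, Igfbp3, Igfbp4, Igfbp5 and Igfbp7). They were chosen by symbol, and all 10 were among the 15838 genes of each of 3 deposited tables. RNA was sequenced from corneal endothelial cells (CEC) peeled with the Descemet membrane, the sheet of basement membrane they rest on, from C57BL/6 mice at 10 weeks of age. The 12 libraries formed 4 groups of 3: male Slc4a11-/- (male KO), female Slc4a11-/- (female KO), male Slc4a11+/+ (male WT) and female Slc4a11+/+ (female WT). Slc4a11 encodes a membrane transporter of the corneal endothelium, and the KO allele is a germline deletion of a run of exons, so cells of every tissue carry it. KO and WT mice were littermates. By the study's methods the membranes of both corneas were processed as a pair, while the labels speak of membranes pooled by genotype. The deposited values are fitted coefficients, so values of single libraries and their sequencing depth were not analysed here.

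IGF1 binds IGF1R, a receptor tyrosine kinase closely related to the insulin receptor. Both receptors phosphorylate IRS adapters, which recruit PI3-kinase and activate AKT, and AKT in turn keeps FOXO transcription factors out of the nucleus. IGF-binding proteins hold IGFs in the extracellular space and can block or prolong their action, and proteases such as pappalysins release the bound ligand. Corneal endothelial cells divide little in the adult and pump fluid out of the stroma, which keeps the cornea thin and clear.

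The promoters of 5 of the genes are shown because their transcripts differed between KO and WT past the threshold used below (Igf1r, Irs2, Igfbp5 and Igfbp7) or, for Irs1, so that both adapters can be compared. The window of Igf1 lies within an annotated exon of the gene and is not shown. The windows are the bases just before the RefSeq start site on GRCm38.p6, read 5′ to 3′ on the gene's strand: Igf1r at chr7:67952007-67952256 (+), Irs1 at chr1:82291440-82291689 (-), Irs2 at chr8:11008930-11009179 (-), Igfbp5 at chr1:72874885-72875115 (-) and Igfbp7 at chr5:77408046-77408295 (-). The last 19 bases before the Igfbp5 start site lie in an annotated exon and were left off, so the stretch printed for that gene ends short of its start. Capitals mark the E-box CACGTG, the GC box GGGCGG on either strand (CCGCCC when it lies on the other strand) and the TATA-like TATTTAA. These motifs were chosen after the sequences had been read, and none of the marked sites overlaps another.
Igf1r: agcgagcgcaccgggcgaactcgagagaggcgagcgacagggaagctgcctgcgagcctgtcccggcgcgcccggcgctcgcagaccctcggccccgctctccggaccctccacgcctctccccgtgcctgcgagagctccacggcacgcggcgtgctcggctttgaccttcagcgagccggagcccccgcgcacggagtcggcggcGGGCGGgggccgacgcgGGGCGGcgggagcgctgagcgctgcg
Irs1: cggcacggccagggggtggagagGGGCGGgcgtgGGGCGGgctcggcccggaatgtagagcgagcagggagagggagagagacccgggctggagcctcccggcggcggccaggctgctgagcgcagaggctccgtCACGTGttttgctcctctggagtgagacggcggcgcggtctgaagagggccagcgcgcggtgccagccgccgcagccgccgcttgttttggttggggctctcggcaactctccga
Irs2: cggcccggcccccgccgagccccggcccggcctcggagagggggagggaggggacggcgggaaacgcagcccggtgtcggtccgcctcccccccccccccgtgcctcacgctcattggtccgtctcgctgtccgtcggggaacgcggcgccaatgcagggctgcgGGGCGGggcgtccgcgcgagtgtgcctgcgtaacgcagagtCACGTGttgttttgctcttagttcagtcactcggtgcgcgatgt
Igfbp5: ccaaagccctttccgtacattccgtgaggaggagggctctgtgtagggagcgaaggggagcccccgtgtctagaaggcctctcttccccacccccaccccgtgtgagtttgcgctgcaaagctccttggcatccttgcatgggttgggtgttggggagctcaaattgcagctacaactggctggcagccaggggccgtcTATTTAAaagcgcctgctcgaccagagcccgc
Igfbp7: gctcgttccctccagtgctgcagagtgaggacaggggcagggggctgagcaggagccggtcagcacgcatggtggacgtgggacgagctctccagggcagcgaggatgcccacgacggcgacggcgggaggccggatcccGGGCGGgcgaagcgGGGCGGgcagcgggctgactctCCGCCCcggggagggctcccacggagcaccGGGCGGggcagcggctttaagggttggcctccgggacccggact

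Both adapter promoters held CACGTG, which begins at base -115 in Irs1 and at base -44 in Irs2, counted back from the start site. It was also present in Igfbp2, at base -142, and so in 3 of the 9 genes with a window. The runs GTCACGTGTT and TGTTTTGCTC, of 10 bases each, occurred in both adapter promoters. They overlap each other in both, and the first holds the CACGTG, so they are not separate matches. The run GGAGAGGGG, of 9 bases, was also shared. How often 2 windows of this composition share such runs was not tested. CACGTG was found in 6.02% of 32817 mouse promoter windows of 250 bases and GGGCGG in 32.7%. These shares are not matched for base composition. G and C made up 77.6% of the Igf1r window, 72.4% of Irs1, 72.8% of Irs2, 67.2% of Igfbp2, 58.8% of Igfbp5 and 74% of Igfbp7. The median of all windows was 52.4%. Igf1r and Irs1 held 2 GC boxes each, Irs2 held 1 and Igfbp7 held 4. Igfbp5 had none and instead held TATTTAA beginning at base -51 from the start site, a run found in 4.18% of windows. A match says only that these letters are present. RefSeq windows were matched for 9 of the 10 genes, all except Insr.

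Igfbp2, which encodes a binding protein found in many body fluids, was by far the most abundant of the 10 transcripts. Its mean over all libraries was 7927 CPM (reads of the gene scaled to the size of its library), and on the log2 scale it exceeded 99.96% of the genes tested. Divided by the length of the gene's merged exons, the mean level was 4292 CPM per kb for Igfbp2, 276 for Igfbp7, 79.4 for Igfbp5 and 50.0 for Igfbp4. The ligand, receptor and adapter transcripts were lower, at 30.4 CPM per kb for Igf1r, 25.7 for Irs2, 11.7 for Igf1, 9.16 for Irs1 and 7.05 for Insr. Igfbp3, which encodes the main IGF carrier of blood, was near the detection limit at 0.423 CPM per kb and 1.32 CPM. The narrowest gap between neighbours in this order, Igf1r against Irs2, was 0.24 on the log2 scale, and the spread between libraries implied by the fit was at most 0.12 for either gene. The gap between any other pair of neighbours also exceeded the larger of their 2 spreads, although merged exon length is only an approximation of the transcript present. These spreads leave out differences between groups, and the estimated order was not the same in every group. In male WT, Igf1 (85.7 CPM, 9904 merged exon bases) lay below Irs1 (87.3 CPM, 9144 bases) per kb. In female WT, Igfbp5 (352 CPM, 6006 bases) lay below Igfbp4 (269 CPM, 4416 bases) per kb.

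Slc4a11 itself was estimated at 3076 CPM in WT and 865 CPM in KO males, and at 4681 CPM in WT and 633 CPM in KO females. Its log2 fold change was -1.83 in males (adjusted p = 0.000522) and -2.89 in females (adjusted p = 2.77e-05), and reads from exons outside the deletion can still be counted.

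The first question was how loss of Slc4a11 changed these transcripts in males and in females. Which effect belongs to which sex was inferred from the coefficients, as described with the processing. In males, Igf1 rose and Igfbp7 fell, 2 of 10 genes with an adjusted p under 0.05, a level that 5.47% of all genes passed. In females, Igfbp5 rose and Irs2 fell, again 2 of 10, where 1.42% of all genes did. Averaged over both sexes, Igf1 was higher and Igf1r and Irs2 were lower in KO, 3 of 10 where 9.07% of all genes passed. The median log2 fold change of the 10 genes was -0.24 in males and -0.18 in females, and that of all genes was -0.02 and 0.01. In bulk samples, fewer cells of a type and less RNA per cell cannot be told apart.

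**Figure D1:**
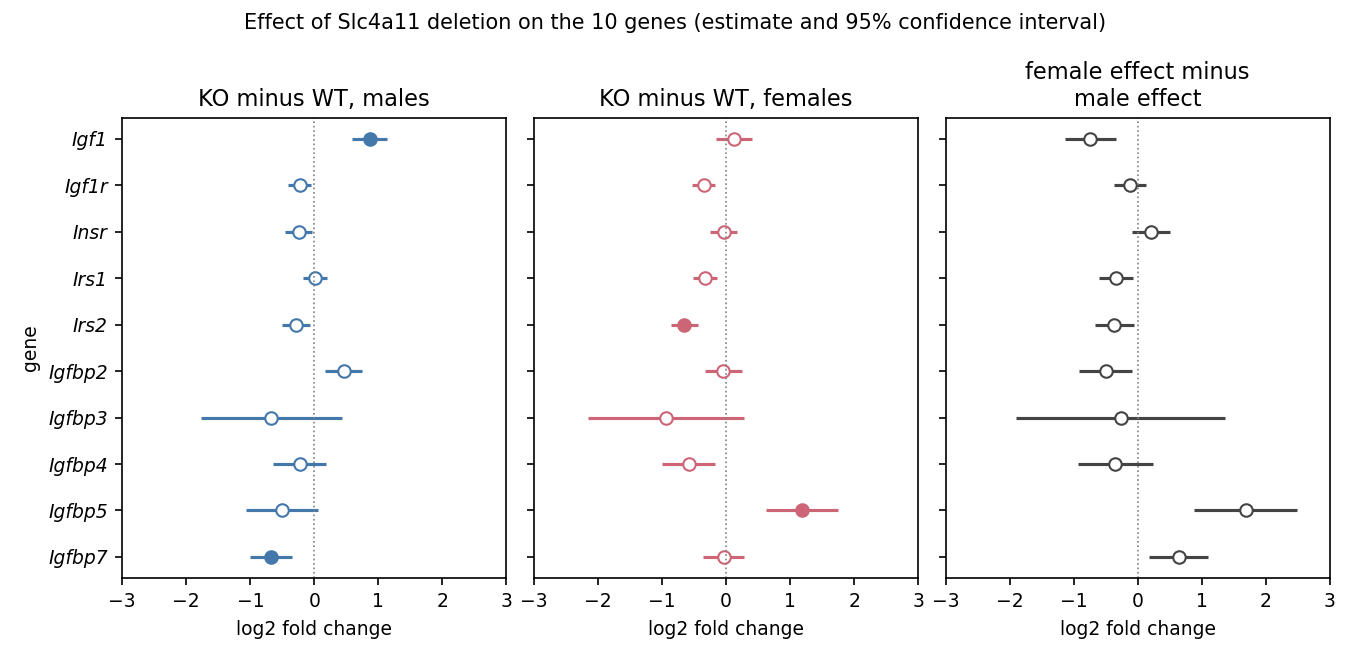
Log2 fold change (x axis) of each of the 10 genes (y axis) for KO minus WT in males, KO minus WT in females and the female effect minus the male effect, with 3 libraries per group. Points are estimates, bars are 95% confidence intervals and filled points have an adjusted p below 0.05: Igf1 and Igfbp7 in males, Irs2 and Igfbp5 in females, and none in the right panel.

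Igf1 encodes the ligand of IGF1R, made by liver and by many tissues locally. Its estimated level was 85.7 CPM in WT and 156 CPM in KO males, and 112 CPM in WT and 122 CPM in KO females. The male KO group was thus the highest and the male WT group the lowest. Here and below these group levels are rebuilt from the coefficients and carry no error of their own. In males, the increase was 1.82-fold (95% CI 1.50 to 2.21, log2 fold change 0.86 ± 0.13 SE, adjusted p = 0.00253). In females, it was 1.09-fold (95% CI 0.90 to 1.32, adjusted p = 0.673). The difference between the sexes had a log2 size of -0.74 ± 0.18 (SE) and did not pass the adjustment (adjusted p = 0.106, limma). Averaged over the sexes, Igf1 was 1.41-fold higher in KO (adjusted p = 0.00669). Igf1 lies on chromosome 10 at 87858265 to 87937042 (GRCm38), overlapped on the other strand by the antisense gene Igf1os.

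Igf1r, the receptor through which IGF1 drives growth and survival, had an estimated level of 569 CPM in WT and 486 CPM in KO males, and 559 CPM in WT and 439 CPM in KO females. Both KO groups lay below both WT groups. Averaged over the sexes, Igf1r was 0.82 of the WT level (95% CI 0.75 to 0.89, adjusted p = 0.0103). Neither sex alone passed the threshold, with a log2 fold change of -0.23 ± 0.08 (SE) in males (adjusted p = 0.124) and -0.35 ± 0.08 in females (adjusted p = 0.055). With the residual degrees of freedom alone, a setting run for the female and average effects only, the average effect also missed it (adjusted p = 0.0516). Insr, which encodes the receptor for insulin, was estimated at 110 CPM in male WT and at 92.5, 94.4 and 92.2 CPM in male KO, female WT and female KO. Its KO effect did not pass in males (log2 fold change -0.25, 95% CI -0.46 to -0.04, adjusted p = 0.157) or in females (-0.03, 95% CI -0.24 to 0.18, adjusted p = 0.890).

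The adapters were both lower in female KO, though only Irs2 passed the test. Irs2, the adapter that predominates in insulin signalling of liver and beta cells, was estimated at 179 CPM in WT and 147 CPM in KO males, and 205 CPM in WT and 131 CPM in KO females. The female KO group was the lowest and the female WT group the highest. In females, the KO level was 0.64 of the WT level (95% CI 0.55 to 0.74, log2 fold change -0.65 ± 0.10 SE, adjusted p = 0.00497). In males, the log2 fold change was -0.28 ± 0.10 (SE, adjusted p = 0.116), and averaged over the sexes it was -0.47 ± 0.07 (adjusted p = 0.00172). The difference between the sexes was -0.37 ± 0.14 (SE, adjusted p = 0.354, limma). The female call was lost with the residual degrees of freedom alone (adjusted p = 0.0611). Irs1, the adapter named first for insulin action in muscle and fat, was estimated at 87.3 and 88.1 CPM in male WT and male KO and at 89.4 and 71.4 CPM in female WT and female KO. Its log2 fold change was 0.01 (95% CI -0.17 to 0.20) in males and -0.32 (95% CI -0.51 to -0.14, adjusted p = 0.0829) in females.

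Among the binding proteins, Igfbp5 passed the test in females and Igfbp7 in males. Igfbp5, which encodes a protein that binds IGFs and extracellular matrix, was estimated at 511 CPM in WT and 360 CPM in KO males, and 352 CPM in WT and 799 CPM in KO females. The female KO group was the highest of the 4. In females, the increase was 2.27-fold (95% CI 1.53 to 3.37, log2 fold change 1.18 ± 0.26 SE, adjusted p = 0.0427), the only effect of the 10 genes that passed with an absolute log2 fold change above 1, as 0.587% of all genes did in females. In males, the estimate was on the other side of 0, with a log2 fold change of -0.51 ± 0.26 (SE, adjusted p = 0.282). The difference between the sexes was 1.69 ± 0.37 (SE) on the log2 scale, a 3.23-fold ratio of effects, and narrowly missed the threshold (adjusted p = 0.0710, limma). It passed when only genes with a mean of at least 10 CPM were adjusted for (adjusted p = 0.0466). The female call was lost with the residual degrees of freedom alone (adjusted p = 0.162).

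Igfbp7, a low-affinity IGF binder secreted by vascular and stromal cells, was estimated at 375 CPM in WT and 235 CPM in KO males, and 381 CPM in WT and 371 CPM in KO females. The male KO group stood below the other 3, which lay close together. In males, the KO level was 0.63 of the WT level (95% CI 0.50 to 0.78, log2 fold change -0.68 ± 0.15 SE, adjusted p = 0.0211), and in females it was 0.97 (95% CI 0.78 to 1.22, adjusted p = 0.923). The difference between the sexes was 0.64 ± 0.21 (SE, adjusted p = 0.245, limma). Averaged over the sexes, the KO level was 0.78 of the WT level (95% CI 0.67 to 0.91) and narrowly missed the threshold (adjusted p = 0.0512). Igfbp7 lies on chromosome 5 at 77349240 to 77408041 (GRCm38) and is overlapped on the other strand by Polr2b and Gm34648. The sources used here do not give the strand setting of the counting. In males, Polr2b had a log2 fold change of 0.25 (adjusted p = 0.261) and Gm34648 one of -0.48 (adjusted p = 0.641).

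The other binding proteins passed in no contrast. Igfbp2 was estimated at 6925 CPM in WT and 9505 CPM in KO males, and 7862 CPM in WT and 7631 CPM in KO females. Its log2 fold change was 0.46 ± 0.14 (SE, adjusted p = 0.0666) in males and -0.04 ± 0.14 (adjusted p = 0.900) in females. Igfbp4, which encodes an inhibitor of IGF action that pappalysin-A cleaves, was estimated at 240, 205, 269 and 180 CPM in male WT, male KO, female WT and female KO. Its female log2 fold change was -0.58 ± 0.19 (SE, adjusted p = 0.158), and the average of both sexes was -0.40 (adjusted p = 0.0761). Igfbp3 ran from 0.873 CPM in female KO to 1.83 CPM in male WT, and at this level its 95% CI in females, -2.15 to 0.28, left a wide range of changes possible.

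**Figure D2:**
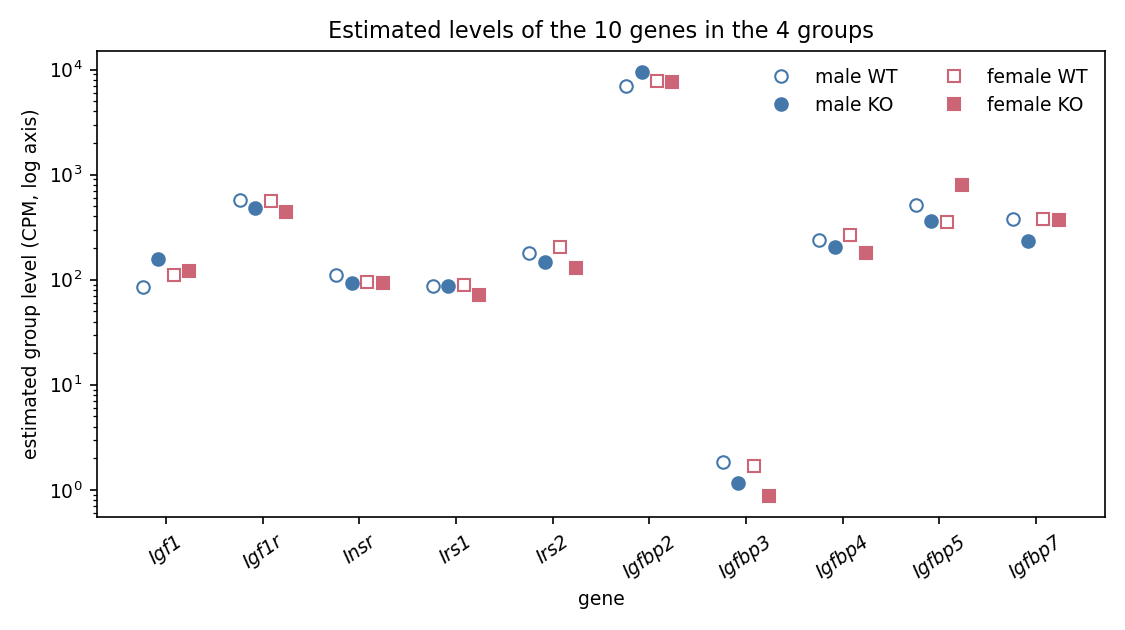
Estimated level (y axis, CPM on a log axis) of each of the 10 genes (x axis) in male WT, male KO, female WT and female KO, each point standing for a group of 3 libraries and drawn without an error. Igf1 is highest in male KO at 156 CPM, Igfbp5 in female KO at 799 CPM, and Igfbp7 is lowest in male KO at 235 CPM.

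The second question was whether the KO effect differed between the sexes. For the 10 genes, 0 passed an adjusted p of 0.05 for this difference, where 0.543% of all genes did. At an unadjusted p under 0.05 there were 6 (Igf1, Irs1, Irs2, Igfbp2, Igfbp5 and Igfbp7), where 10.2% of all genes were past that level. The female effect was the more positive one for Igfbp5 and Igfbp7 and the more negative one for the other 4. Opposite signs in the 2 sexes were found for Irs1, Igfbp2 and Igfbp5, 3 of 10, a share close to the 32.6% of all genes. Between females and males, over both genotypes, 0 of the 10 passed by limma and 0 had an unadjusted p under 0.05. Of all genes, 0.0316% and 3.74% did. The sex fit was read as one without a genotype term, in which a KO effect widens the SE. Its SE was 1.50 times that of the mean KO effect (median) for genes past 0.05 for that effect. For other genes the ratio was 1.06. For Igf1 the SE was 0.185 beside 0.092, and for Irs2 0.149 beside 0.071. The sex difference closest to the threshold was that of Igfbp7, at 0.34 ± 0.16 (SE, adjusted p = 0.882, limma) on the log2 scale.

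Of the genes at a mean of at least 10 CPM, 8801 in number, those nearest to a called gene in their male effect, female effect and sex difference were found by Euclidean distance over these 3 log2 values. Igf1 was nearest to Ptpre (distance 0.06) and Efnb1 (0.07), and Igf1r to Tmtc4 (0.03) and Ift172 (0.03). Irs2 was nearest to Prkch (0.03) and Fbln2 (0.06), and Igfbp7 to Apoe (0.04) and Clstn3 (0.09). Igfbp5 had no neighbour as close, and its nearest genes were Trmt6 (0.17) and H2-D1 (0.24).

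Other genes of the pathway were taken from lists of ligands, receptors, binding proteins, proteases, adapters, inhibitors, the PI3K-AKT-mTOR relay, FOXO and growth hormone signalling. Of 80 such genes with values, 1 rose and 8 fell in males, 1 rose and 1 fell in females, and 2 rose and 9 fell in the average of both sexes, against 5.47%, 1.42% and 9.07% of all genes called in either direction. None of the 80 passed for the difference between the sexes, by limma, and 10 had an unadjusted p under 0.05, where 10.2% of all genes did. The median log2 fold change of the 80 was -0.06 in males and 0.07 in females.

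Extracellular regulators of IGF included the steepest decreases, all at low levels. Pappa, the pappalysin that cleaves IGFBP4, had a mean of 0.686 CPM and fell in both sexes, with a log2 fold change of -2.70 in males (adjusted p = 0.0421) and -3.08 in females (adjusted p = 0.0187). Pappa2, the related protease that cleaves IGFBP3 and IGFBP5, fell by 2.96 in the average of both sexes (adjusted p = 0.0292) at a mean of 0.334 CPM. Stc2, which encodes a stanniocalcin that inhibits pappalysins, fell by 1.01 in the average (adjusted p = 0.0171). In this list of 6 proteases and inhibitors, 1 fell in males, 1 in females and 3 in the average, and none rose, beside the same 5.47%, 1.42% and 9.07% of all genes. Igfbp6, an IGF2-preferring binding protein, fell by 3.12 in males (adjusted p = 0.0159), with a female log2 fold change of -2.05 (adjusted p = 0.167). Igf2, the second ligand, fell by 0.49 in the average (adjusted p = 0.0476).

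Among 10 receptor inhibitors, 2 fell in males and 3 in the average, and none rose, where 5.47% and 9.07% of all genes passed. Enpp1, an ectoenzyme that can inhibit the insulin receptor, fell by 1.27 in males (adjusted p = 0.00786), with -0.98 in females (adjusted p = 0.0792). Grb10, an adapter that damps both receptors, fell by 0.78 in males (adjusted p = 0.0345), and Trib3, an AKT-binding pseudokinase, fell by 0.64 in the average (adjusted p = 0.00931). The adapters besides Irs1 and Irs2 gave no call.

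Inside the cell, the genes named below are 1 of 30 of the relay in the average and 2 of 17 FOXO genes in males. In the growth hormone list they are 2 of 6 in males and 1 of 6 in females. Of all genes, 5.47% passed in males, 1.42% in females and 9.07% in the average. Among 30 genes of the PI3K-AKT-mTOR relay, Pik3r1, the regulatory subunit of PI3-kinase, fell by 0.26 in the average (adjusted p = 0.0481). In the FOXO list of 17 genes with values, Cited2, a transcriptional coregulator, rose by 0.93 in males (adjusted p = 0.0169), and Pik3ip1, an inhibitor of PI3-kinase, fell by 0.94 in males (adjusted p = 0.0473). In the growth hormone list of 6, Ghr, the growth hormone receptor, fell by 0.39 (adjusted p = 0.0239) and Socs2, its feedback inhibitor, fell by 0.86 (adjusted p = 0.0171), both in males. Stat5a, a transcription factor downstream of that receptor, rose by 0.62 in females (adjusted p = 0.0310). All 6 growth hormone genes had a more positive effect in females than in males, as did 60 of the 80 pathway genes with values. The median difference of the 6 was 0.48 on the log2 scale, beside 0.12 for the 80 and 0.02 for all genes. None of the 6 differences passed the adjustment (limma). At an unadjusted p under 0.05 there were 4, where 10.2% of all genes were past that level.

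**Figure D3:**
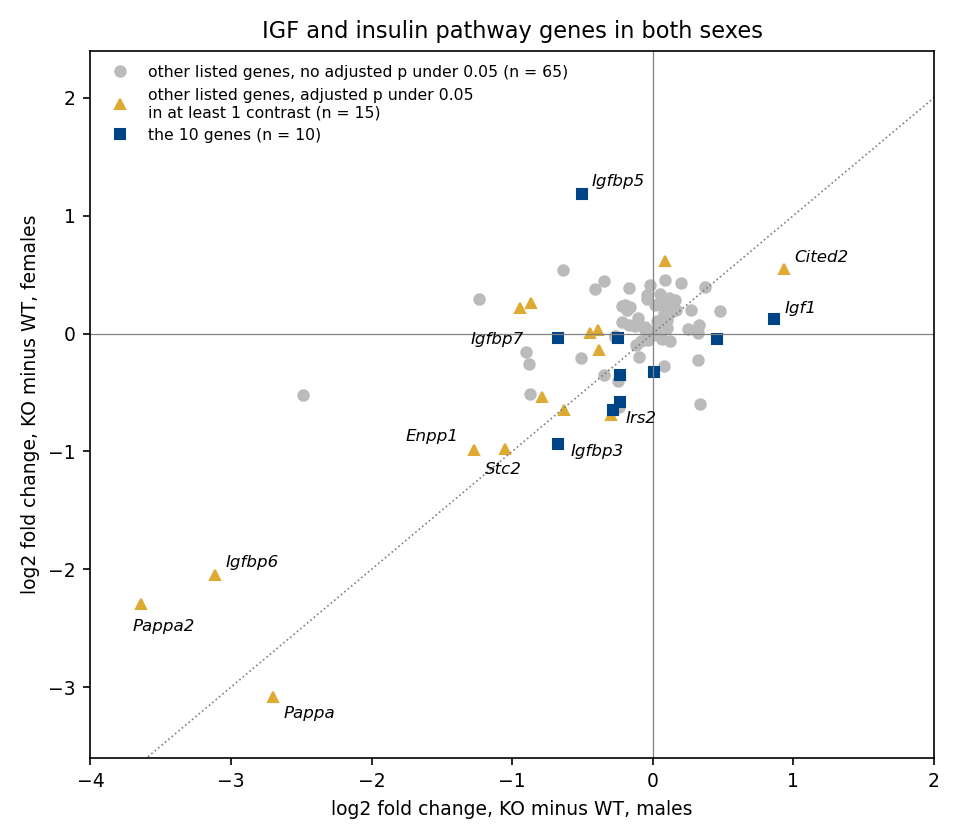
Log2 fold change for KO minus WT in males (x axis) and in females (y axis) for the 10 genes (squares), 15 other listed genes past an adjusted p of 0.05 in at least 1 contrast (triangles) and 65 listed genes past it in none (circles), with equal effects on the dotted diagonal. Igfbp5 lies above 0 in females and below 0 in males, Igf1 lies near 0 in females only, and Pappa, Pappa2 and Igfbp6 lie far below 0 in both.

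Marker genes were examined in the same tables. The 10 corneal endothelial markers with values other than Slc4a11 gave no call. Together these 10 summed to 19151 CPM in WT and 21449 CPM in KO males, and to 19426 CPM in WT and 21171 CPM in KO females. Markers of neighbouring cells moved beside the IGF genes. All 8 stromal markers with values had estimates below 0 in the average of both sexes, and 7 passed, where 9.07% of all genes did. Among the 7 were the corneal keratocyte proteoglycan gene Kera (log2 fold change -0.85, adjusted p = 0.0441) and Col1a2 (-0.65, adjusted p = 0.0188). Their summed level was 16323 CPM in WT and 11563 CPM in KO males, and 16538 CPM in WT and 9042 CPM in KO females. The estimates for Igf1r, Irs2, Igf2 and the pappalysins were also below 0 in both sexes, and the part of stromal cells in those results was not tested.

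Leukocyte markers had estimates that ran in opposite directions in the 2 sexes, as did those of Igfbp5. Their sum was 68.2 CPM in WT and 42.5 CPM in KO males, and 48.0 CPM in WT and 84.1 CPM in KO females. Of 8 leukocyte genes, 7 were below 0 in males and 7 above 0 in females, none passed in either sex, and Cd74 alone fell in the average (by 0.79, adjusted p = 0.0274). The summed vascular and pericyte markers were 305 and 217 CPM in male WT and male KO, beside the fall of Igfbp7, and 267 and 195 CPM in female WT and female KO, where Igfbp7 gave 0.97 of the WT level. The most abundant gene in these sums was Pdgfrb, with a mean of 151 CPM over all libraries. The median log2 fold change of these 7 genes was -2.56 in males, with 5 at an unadjusted p under 0.05, and -1.02 in females, with 1. Of the 7 vascular and pericyte genes, Pdgfrb fell in males (by 0.62, adjusted p = 0.0262) and Kdr fell in females (by 0.95, adjusted p = 0.0114). In the other sex, the log2 fold change was -0.17 for Pdgfrb in females and -0.01 for Kdr in males. The epithelial list fell at 1 of 9 genes, Aldh3a1, in each sex, and the pigment list at 3 of 6 in the average (Tyr, Dct and Oca2). The pigment sums went from 35.9 and 46.5 CPM in male and female WT to 14.2 and 6.34 CPM in KO. Beside these marker counts, 5.47% of all genes passed in males, 1.42% in females and 9.07% in the average. No muscle, nerve or lens marker passed in any contrast, by limma. An unadjusted p under 0.05 was found for 1 nerve gene in males and in the average, a level ranked over all genes above. The KO effects of all muscle, nerve and lens markers with values were nevertheless estimated below 0 in both sexes. The median log2 fold change of the lens list was -1.48 in males and -1.36 in females. The part of these cells in the results for the IGF genes was not tested.

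**Figure D4:**
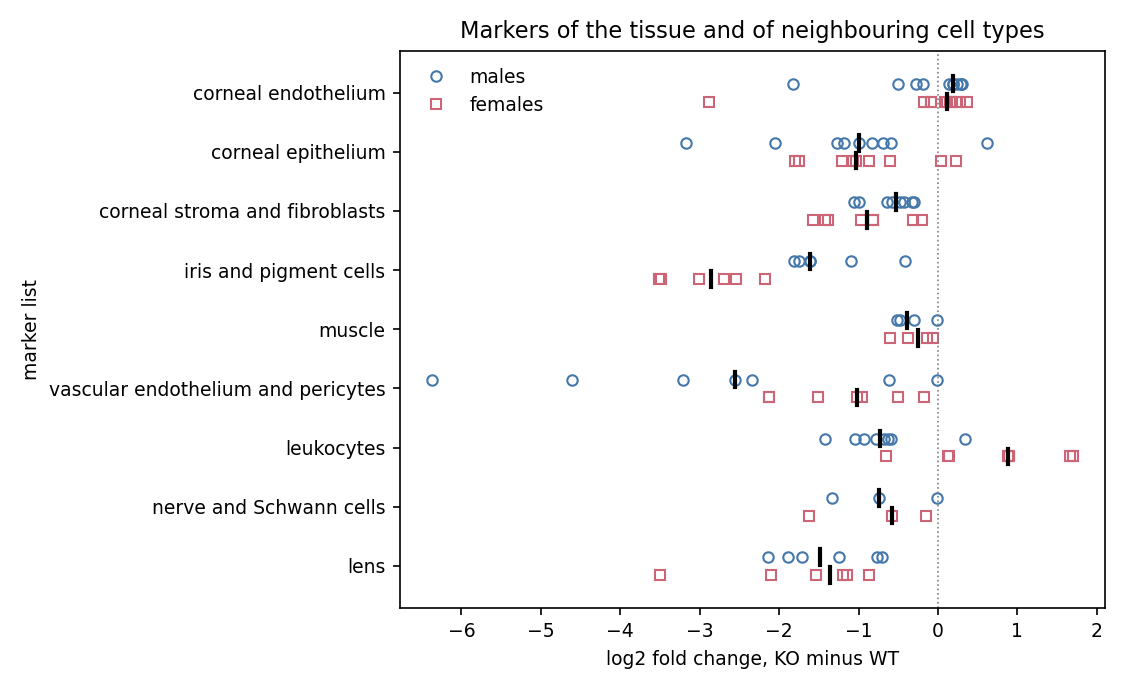
Log2 fold change for KO minus WT (x axis) of each marker gene in males (circles) and females (squares), by marker list (y axis), with the list median as a black bar. Stromal, pigment, muscle, vascular, nerve and lens markers lie below 0 in both sexes, and leukocyte medians are -0.73 in males and 0.88 in females.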

How the data were processed

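RNA-seq libraries of mouse CEC (3 per group) were made with a stranded total RNA kit, and the reads were aligned with HISAT2 to GRCm38/mm10. The read counter and its versions are not given in the sources used here. The authors converted counts to CPM, applied TMM scaling and fitted limma-voom in a genotype by sex design. The 3 tables the authors deposited hold, per gene, a log2 fold change, the mean log2 CPM, a t statistic and a log-odds score, with the p-value and adjusted p-value. These are the authors' own fitted comparisons, and their rows for the 10 genes were the data here.

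The genotype table was taken to hold the KO effect in males, and the interaction the female minus the male effect. The sex table was taken as female minus male over both genotypes (4 of 4 Y-linked genes were negative). The median interaction SE was 1.42 times the genotype SE, a ratio that either sex as the reference would give. Males were taken as the reference from the sign of the Y-linked genes in the sex table, and no header states it. With females as the reference, the KO effects given here for males and females would be swapped. SE was the fold change divided by t. The female effect is the sum of the first 2 coefficients, and the mean effect adds 0.5 of the interaction. Their SEs come from those of the coefficients, their p-values from t with 13.8 degrees of freedom, and adjustment was Benjamini-Hochberg over 15838 genes. The derivation was tested on simulated data with limma 3.58.1 and R 4.3.3, and the analysis used Python 3.11.15 with scipy 1.17.1. Exon lengths and coordinates are those of GENCODE M21. Named were all 10 genes, listed pathway genes past an adjusted p of 0.05 in any contrast, the 2 nearest genes of each called gene, and markers by list. A listed gene that this rule names is not reported here. The genes and lists were chosen with earlier results of these data known. The sources do not say outright that each library is 1 mouse, so p-values measure the spread between these libraries, and depth is unknown.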

Additional observations from a re-analysis of the deposited data

How the results depend on the processing

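In males, the count of 2 genes past the threshold became 1 (Igf1) with Benjamini-Yekutieli adjustment, 0 with Holm adjustment and 0 when an absolute log2 fold change over 1 was also asked for. In females, the count of 2 became 0 with either of these adjustments, 0 with the residual degrees of freedom alone and 1 with the fold change limit. The residual degrees of freedom were applied, with the moderated t kept, only to the female and the average effects. The male calls were not put to that setting. For the average of both sexes, the count of 3 became 1 (Irs2), 0 and 0 under the same 3 settings as in males. For the difference between the sexes, the count of 0 became 1, Igfbp5, when only genes at a mean of 10 CPM or more were adjusted for and when 1 adjustment covered 4 contrasts (adjusted p = 0.0457). The minimum of 1 CPM left all 5 counts within 1.5 times. Gene by gene, 1 result gained a call at the minimum of 1 CPM and 3 at that of 10 CPM, and none lost a call. Directions come from the same coefficients in all of these settings. Centring on the median of all genes, an alternative chosen after seeing the data, reversed no call and moved no effect by more than its SE. With the sex coefficient read as the difference in WT, the estimated levels of Igf1 and Igfbp5 moved by more than the spread between libraries, by at most 0.42 on the log2 scale, while every within-sex fold change is the same by construction. Leaving out replicates, another normalization and another pseudocount were not run, since they need values of single libraries. No paired analysis was possible because the tables hold only fitted coefficients, and the labels number no replicates.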
